A study of Mus musculus with 6 samples.

Results

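The cholinergic interneuron genes examined here were Chat, Slc18a3, Slc5a7, Ache, Lhx8 and Slc17a8, taken from the expression table by gene symbol. They were chosen as markers of the acetylcholine neurons of the striatum and of acetylcholine turnover. All 6 were among the 23067 genes of the table, and all 6 reached the minimum mean of 1 FPKM at which 14156 genes were tested. FPKM is a transcript level scaled for transcript length and for the size of the library. The libraries came from dorsal striatum of mice at postnatal day 21, 3 with the genotype Lrrk2G2019S/G2019S (knock-in) and 3 with Lrrk2WT/WT (wild type). The knock-in carries the G2019S change, linked to Parkinson's disease, in both copies of the kinase gene Lrrk2, and the labels name no treatment for either group. The design compares the 2 genotypes. The labels do not say which libraries came from separate animals. All p-values therefore rest on the spread among these libraries, which may be technical. The titles give male animals for both groups, but Xist, the RNA of the silenced X chromosome, was at 27.2 to 39.3 FPKM in every library, which goes against them.

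Cholinergic interneurons are a small minority of striatal neurons, yet they fire tonically and are the main source of striatal acetylcholine. Acetylcholine is made by choline acetyltransferase (Chat), loaded into vesicles by the vesicular acetylcholine transporter (Slc18a3) and split in the synaptic cleft by acetylcholinesterase (Ache), after which choline is taken back up by the high-affinity choline transporter (Slc5a7). These neurons also load glutamate into vesicles through Slc17a8 (VGLUT3), and their identity is set in development by the LIM homeodomain factor Lhx8. In bulk tissue, fewer cells of a type and less RNA per cell cannot be told apart.

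Chat and Slc18a3 form one locus, and their promoters are shown with that of Slc5a7 because these 3 genes together make, store and recover the transmitter. In GENCODE M21 on GRCm38, Chat (ENSMUSG00000021919) lies on chromosome 14 at 32408203 to 32465989 and Slc18a3 (ENSMUSG00000100241) at 32462438 to 32464850, both on the minus strand. Slc18a3 is a single exon that begins 1059 bases downstream of the RefSeq start of Chat and sits inside a Chat intron. The exons of the pair share 0 bases. Gm2990, an antisense gene with a mean of 0.979 FPKM, also overlaps the span of Chat, with 0 exon bases in common. The sequences below are the 250 bases before each start site, 5′ to 3′ on the gene's strand, from RefSeq on GRCm38.p6, and capitals mark matches to the motifs named after them. They lie at chr14:32465910-32466159 for Chat, chr14:32464851-32465100 for Slc18a3 and chr17:54299035-54299284 for Slc5a7, all on the minus strand.
Chat: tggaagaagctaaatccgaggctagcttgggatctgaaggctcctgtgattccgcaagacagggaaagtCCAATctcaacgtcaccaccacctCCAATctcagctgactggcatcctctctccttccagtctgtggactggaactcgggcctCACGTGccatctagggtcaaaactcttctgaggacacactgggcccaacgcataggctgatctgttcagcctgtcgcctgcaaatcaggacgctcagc
Slc18a3: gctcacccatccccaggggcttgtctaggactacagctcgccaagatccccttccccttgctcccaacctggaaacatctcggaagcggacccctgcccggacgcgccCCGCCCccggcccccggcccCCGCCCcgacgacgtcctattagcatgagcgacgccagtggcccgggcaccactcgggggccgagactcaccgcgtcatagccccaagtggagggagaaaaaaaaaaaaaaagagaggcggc
Slc5a7: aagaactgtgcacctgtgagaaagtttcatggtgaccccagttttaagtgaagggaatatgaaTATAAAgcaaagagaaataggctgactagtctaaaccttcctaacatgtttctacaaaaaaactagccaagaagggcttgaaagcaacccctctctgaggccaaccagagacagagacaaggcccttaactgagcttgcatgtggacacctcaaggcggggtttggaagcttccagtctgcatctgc

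A set of 5 short motifs was searched on both strands of these windows: TATAAA, the TATA box, then CCAAT, the core of the CCAAT box, then GGGCGG, the GC box, then CACGTG, an E-box, and finally TAATTA, a homeodomain core. Chat held CCAAT 2 times and CACGTG once, and Slc18a3 held GGGCGG 2 times, read on the other strand as CCGCCC. Slc5a7 held TATAAA once, at 187 to 182 bases before its start site, and whether it acts as a TATA box was not tested. No matches overlapped in these 3 windows. Of 32851 RefSeq promoter windows, 33.8% held CCAAT, 32.7% held GGGCGG, 12.4% held TATAAA, 6.02% held CACGTG and 4.84% held TAATTA. None of the 3 windows held TAATTA, and the upstream windows of Chat and Slc18a3 differed in base composition, with 54.8% and 66.0% G and C against a median of 52.4% over all windows. Thus the neighbouring genes of this locus have promoter windows with different matches, and a match is a description of letters only.

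**Figure D1:**
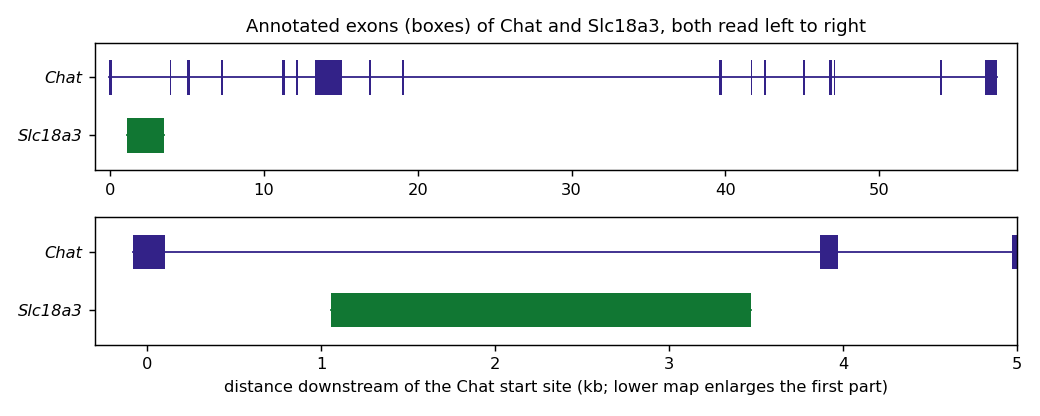
Map of the Chat and Slc18a3 locus, with distance downstream of the RefSeq start of Chat in kilobases on the x axis and annotated exons as boxes. The single exon of Slc18a3 lies in a gap between Chat exons, with 3 annotated Chat exons upstream of it and 21 downstream, alternative exons counted separately, and the lower map enlarges this stretch.

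Chat, the enzyme that defines the cell type, was at 4.62, 4.50 and 6.64 FPKM in wild type replicates 1 to 3 and at 5.29, 4.80 and 6.13 FPKM in knock-in replicates 1 to 3. The genotypes overlapped fully, and the highest library of each genotype was replicate 3. The means were 5.25 ± 1.20 and 5.41 ± 0.672 FPKM (SD, n = 3 each), a ratio of 1.03. The log2 difference was 0.047 (SE 0.14, adjusted p = 0.997 in limma), and the 95% interval of the fold on the log2(FPKM + 1) scale ran from 0.821 to 1.30. A true fold of FPKM + 1 anywhere between these bounds is compatible with the 6 libraries. All intervals below are on this scale, which understates changes of low genes. Folds of FPKM itself beyond the bounds are therefore not excluded.

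Slc18a3, which fills vesicles with acetylcholine, was at 3.40, 3.78 and 4.80 FPKM in the wild-type libraries and at 3.62, 3.77 and 4.10 FPKM in the knock-in libraries. All knock-in values lay inside the wild-type range. The means were 3.99 ± 0.721 and 3.83 ± 0.245 FPKM (SD, n = 3 each), with a log2 difference of -0.040 (SE 0.11, adjusted p = 0.997 in limma) and an interval of the fold from 0.818 to 1.16. Within a library the ratio of Slc18a3 to Chat ranged from 0.669 to 0.840, with means of 0.767 ± 0.0640 in wild type and 0.713 ± 0.0631 in knock-in (SD, n = 3 each). That ratio did not separate the genotypes (two-sided exact permutation p = 0.40, where 3 against 3 libraries cannot go below 0.10).

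Slc5a7, the choline uptake transporter whose supply of choline limits the making of acetylcholine, was at 2.64, 2.74 and 3.53 FPKM in wild type and at 3.04, 2.85 and 4.43 FPKM in knock-in. Knock-in replicate 3 was the highest library, and the other knock-in values fell inside the wild-type range. The means were 2.97 ± 0.489 and 3.44 ± 0.861 FPKM (SD, n = 3 each), a ratio of 1.16, with a log2 difference of 0.15 (SE 0.15, adjusted p = 0.997 in limma). The interval of the fold ran from 0.874 to 1.41. With 0.1 in place of 1 added to FPKM before the log, the difference was 0.19 (SE 0.19). Slc5a7 (ENSMUSG00000023945) lies on chromosome 17 at 54273590 to 54299034.

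Ache, the enzyme that ends the acetylcholine signal, had the highest level of the 6 genes, at 11.3, 9.80 and 12.4 FPKM in wild type and at 10.6, 10.9 and 8.70 FPKM in knock-in. Knock-in replicate 3 was its lowest library, although that library was the highest for Slc5a7 and Slc17a8. The means were 11.1 ± 1.28 and 10.1 ± 1.19 FPKM (SD, n = 3 each), and the genotypes overlapped. The log2 difference was -0.13 (SE 0.11, adjusted p = 0.997 in limma), with an interval of the fold from 0.767 to 1.08. Ache (ENSMUSG00000023328) lies on chromosome 5 at 137287519 to 137294466. The noncoding Gm42456, on the other strand, shares 98 exon bases with it, and whether the counting used strand is not given in the sources used here, so reads there may belong to either gene.

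Lhx8, the transcription factor that specifies these neurons, was at 2.28, 2.03 and 2.70 FPKM in wild type and at 2.11, 2.36 and 2.25 FPKM in knock-in. Every knock-in value lay inside the wild-type range. The means were 2.34 ± 0.336 and 2.24 ± 0.129 FPKM (SD, n = 3 each), with a log2 difference of -0.038 (SE 0.088, adjusted p = 0.997 in limma) and an interval of the fold from 0.845 to 1.12. Lhx8 (ENSMUSG00000096225) lies on chromosome 3 at 154306294 to 154330659.

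Slc17a8, the vesicular glutamate transporter that gives these neurons a second transmitter, varied most between libraries. It was at 1.81, 1.79 and 2.50 FPKM in wild type and at 2.13, 1.62 and 3.32 FPKM in knock-in, so that the knock-in group held both the lowest and the highest library. The means were 2.04 ± 0.404 and 2.36 ± 0.873 FPKM (SD, n = 3 each), a ratio of 1.16. The log2 difference was 0.12 (SE 0.19, adjusted p = 0.997 in limma), and the interval of the fold of FPKM + 1 ran from 0.796 to 1.49, the widest of the 6. With 0.1 in place of 1 added to FPKM before the log, the difference was 0.16 (SE 0.26), a larger spread. Slc17a8 (ENSMUSG00000019935) lies on chromosome 10 at 89574020 to 89621253. Serotonin neurons, whose cell bodies lie in the brainstem, also use Slc17a8, and their enzyme gene Tph2 was at 0.355 to 0.791 FPKM.

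**Figure D2:**
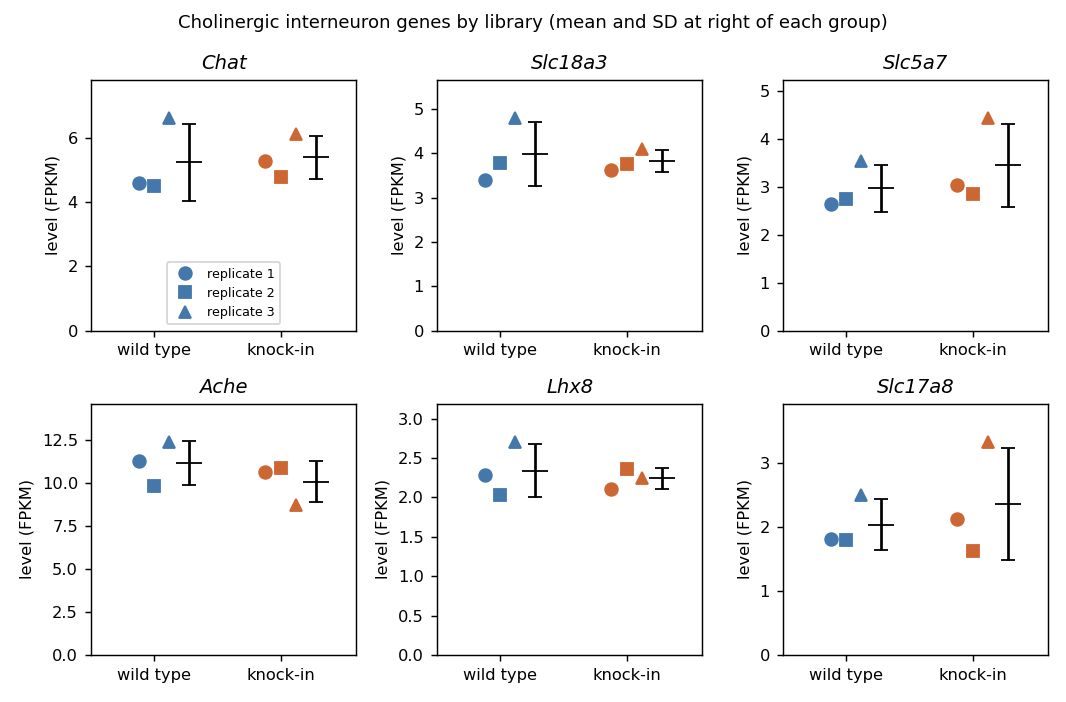
Level of each cholinergic gene in FPKM (y axis, from 0) in the 3 wild-type (blue) and 3 knock-in (orange) libraries, with symbols for replicates 1 to 3 and bars for the mean and SD. The genotypes overlap in all 6 panels, and the wild-type triangle (replicate 3) is the highest wild-type value in each.

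Among the 6 cholinergic genes, 3 had a higher and 3 a lower mean log2 level in knock-in, and 0 were called at an adjusted p under 0.05 in limma. Over all genes tested, 3 of 14156 were called, or 0.0212%. At an unadjusted p under 0.05 the count was 0 of 6, against 4.27% of all genes tested. The FPKM values of the genotypes separated without overlap for 0 of 6, against 9.51% of all genes. The median log2 difference of the 6 was 0.0042, beside -0.014 over all genes tested. With 6 genes, a count of 0 is near these background shares and is no result about the cholinergic genes as a group. The two-sided exact permutation p of single genes ranged from 0.40 for Ache to 0.80 for Chat, Slc18a3 and Lhx8.

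The direction of 5 of the 6 differences depended on single libraries. Without knock-in replicate 3, the differences were -0.033 for Chat, -0.0010 for Slc5a7 and -0.076 for Slc17a8, so that all 3 genes with a higher mean in knock-in turned lower. Without wild type replicate 3, the differences of Slc18a3 and Lhx8 turned to 0.073 and 0.038, and that of Chat was 0.20. Chat also turned lower without wild type replicate 1 (-0.022) or wild type replicate 2 (-0.037). Without both replicate 3 libraries, an alternative chosen after seeing the data, Ache turned to 0.031. In each of these fits 0 of the 6 genes were called.

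**Figure D3:**
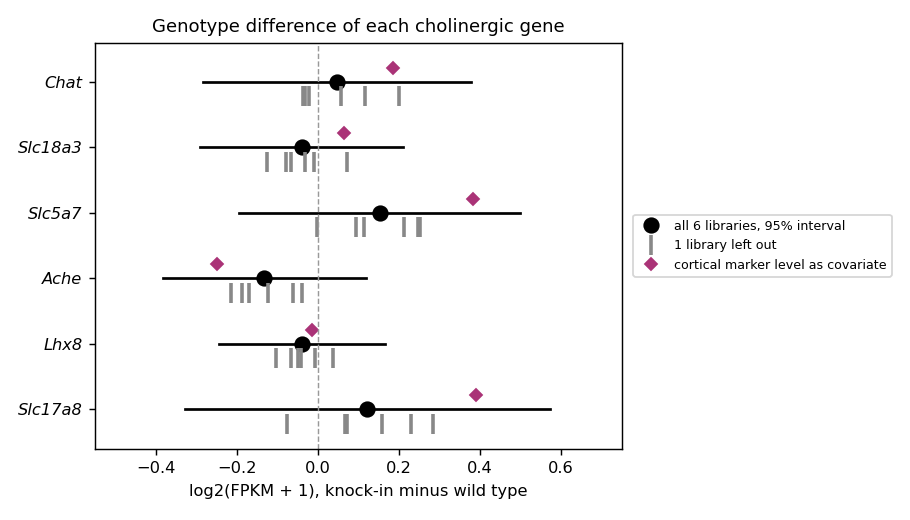
Difference between genotypes of each cholinergic gene on the log2(FPKM + 1) scale (x axis, knock-in minus wild type), with the 95% interval from limma as a line, fits without 1 library as grey ticks and the fit with the cortical marker level as diamonds. All 6 intervals cover 0, and the ticks lie on both sides of 0 for each gene except Ache.

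The larger pattern in these genes ran across libraries and not between genotypes. Wild type replicate 3 was the highest library for 4 of the 6 genes and knock-in replicate 3 for the other 2. In the replicate 3 libraries Chat was at 6.64 and 6.13 FPKM, while the remaining 4 libraries ranged from 4.50 to 5.29 FPKM. Slc5a7 was at 3.53 and 4.43 FPKM there, against 2.64 to 3.04 FPKM, Slc18a3 at 4.80 and 4.10 FPKM, against 3.40 to 3.78 FPKM, and Slc17a8 at 2.50 and 3.32 FPKM, against 1.62 to 2.13 FPKM. Each of these 4 genes was thus higher in both replicate 3 libraries than in any other library. This split of the libraries was chosen after the values were seen. How many of all genes tested do the same was not counted, so it is no result about the cholinergic genes. Ache and Lhx8 followed in wild type replicate 3 only, at 12.4 and 2.70 FPKM, while in knock-in replicate 3 Ache was at its lowest and Lhx8, at 2.25 FPKM, was in the middle. Set against each gene's wild-type mean on the log2 scale, the median of the 6 genes was 0.21 in wild type replicate 3 and 0.12 in knock-in replicate 3. It was -0.11 and -0.12 in wild type replicates 1 and 2 and -0.015 and -0.046 in knock-in replicates 1 and 2.

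**Figure D4:**
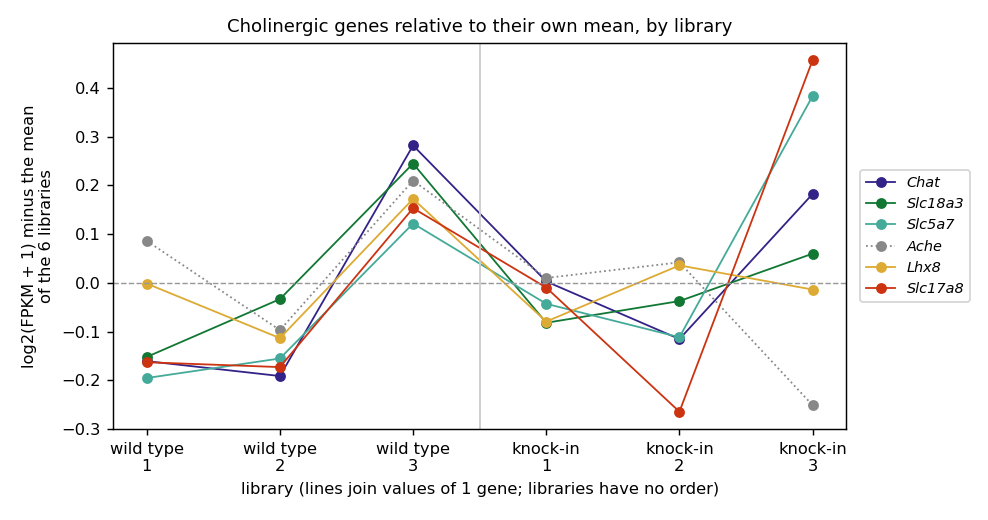
Level of each cholinergic gene on the log2(FPKM + 1) scale minus its own mean over the 6 libraries (y axis), by library (x axis), with wild type left and knock-in right of the vertical line. All 6 genes lie above their mean in wild type replicate 3, and Ache (dotted) lies below its mean in knock-in replicate 3 while Slc5a7 and Slc17a8 are at their highest there.

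The spread between libraries within a genotype, as a pooled coefficient of variation, was 18.3% for Chat, 21.9% for Slc5a7, 13.8% for Slc18a3 and 31.0% for Slc17a8. The median was 8.09% over the 6122 tested genes within 2-fold of the level of Chat and 10.5% over the 5433 within 2-fold of that of Slc17a8. Of those genes, 89.7% varied less than Chat and 94.4% varied less than Slc17a8. Lhx8, at 11.1%, was close to the median of 10.4% for its level. Ache, at 11.7%, was above the median of 7.03% for its level. The intervals above rest on the spread on the log2 scale, which limma first moves toward that of genes of like level.

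The levels of 15 pairs of these genes were compared over the 6 libraries, and 13 correlations were positive. The closest pair was Slc5a7 and Slc17a8, both carriers of small molecules, with a Pearson r of 0.97 (exact permutation p = 0.00833, adjusted p = 0.125) and a Spearman rho of 0.77 (exact permutation p = 0.103, adjusted p = 0.385). Without the replicate 3 libraries, the 2 farthest from the median, r was 0.56. Chat and Slc5a7 had an r of 0.84 (exact permutation p = 0.0319, adjusted p = 0.156) and a rho of 0.89 (exact permutation p = 0.0333, adjusted p = 0.385), and r was 0.91 without those libraries. Chat and Slc18a3, the genes of the shared locus, had an r of 0.85 (exact permutation p = 0.0222, adjusted p = 0.156) and a rho of 0.60 (exact permutation p = 0.242, adjusted p = 0.604), but r was -0.035 without the replicate 3 libraries, so this relation rests on them. Chat and Ache had an r of 0.086 (exact permutation p = 0.861, adjusted p = 0.861) and a rho of 0.20 (exact permutation p = 0.714, adjusted p = 0.892). Of the 15 pairs, 0 passed an adjusted p of 0.05.

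Many genes followed Chat over the 6 libraries as closely as its functional partners did. Ranked by Pearson r with Chat among 12267 tested genes with predicted gene models left out, Slc18a3 was at rank 182, Slc5a7 at 221, Slc17a8 at 248, Lhx8 at 1043 and Ache at 4789. The 5 genes at the top were Gabrg1, a GABA-A receptor subunit (r = 0.993), the glycosyltransferase gene B3galnt2 (r = 0.989), the coactivator gene Ncoa7 (r = 0.988), the tyrosine kinase gene Jak2 (r = 0.987) and Pde12 (r = 0.981). Jak2 was at 11.4, 11.3 and 13.1 FPKM in wild type and at 11.8, 11.5 and 12.9 FPKM in knock-in. Because Jak2 was picked for its correlation with Chat, its rise in the replicate 3 libraries follows from that choice. These are descriptions over the same 6 libraries, in which the replicate 3 libraries weigh most, with no test.

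Ordered by level per transcript length, Ache had a mean of 10.6 FPKM over the 6 libraries, Chat 5.33, Slc18a3 3.91, Slc5a7 3.21, Lhx8 2.29 and Slc17a8 2.20 FPKM. These lay at percentiles 68.3, 46.9, 37.0, 30.6, 20.8 and 19.6 of the mean levels of all genes tested. Ache exceeded Chat, Chat exceeded Slc18a3 and Slc5a7 exceeded Lhx8 in 6 of 6 libraries. Slc18a3 exceeded Slc5a7 in 5 of 6, knock-in replicate 3 being the exception, and Lhx8 exceeded Slc17a8 in 4 of 6, so the order of the last pair did not hold beyond the spread between libraries. All 6 genes were thus present in this tissue, at low to middling levels. In bulk tissue these levels do not say which cells they came from.

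The transcript for the membrane anchor of acetylcholinesterase and those for choline supply were read from a list of 14 genes, of which 11 had a row and 8 were tested. Of the 8, 2 were higher and 6 lower in knock-in, 0 were called, and the median log2 difference was -0.087. An unadjusted p of 0.05 was passed by 1 of the 8, beside 4.27% of all genes tested, and 2 of the 8 did not overlap between genotypes, beside 9.51% of all genes tested. Slc44a1, a choline transporter-like protein, was at 23.8, 24.9 and 23.5 FPKM in wild type and at 20.5, 19.3 and 18.6 FPKM in knock-in. Its log2 difference was -0.29 (SE 0.061, adjusted p = 0.911 in limma), so it was not called although the genotypes did not overlap. Markers of oligodendrocytes stood lower in the same libraries: 6 of 6 had a lower mean in knock-in, 0 of them called, with 4 at an unadjusted p under 0.05 (4.27% of all genes tested) and 2 without overlap (9.51% of all genes tested). Wild-type libraries summed to 2584 to 2910 FPKM over them while knock-in libraries summed to 2088 to 2551 FPKM. Their part in the level of Slc44a1 was not tested. Prima1, the membrane anchor of Ache, had means of 14.9 ± 0.468 (wild type) and 13.6 ± 0.706 FPKM (knock-in; SD, n = 3 each; log2 difference -0.12, adjusted p = 0.997 in limma). The choline kinase gene Chkb and the transporter gene Slc44a2 had log2 differences of -0.10 and -0.083. Slc10a4, a vesicle protein of cholinergic and monoamine neurons that was picked after its values were seen, was at 7.53, 6.46 and 8.95 FPKM in wild type and at 7.70, 7.20 and 9.46 FPKM in knock-in, highest in the replicate 3 libraries as Chat was.

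Further genes of cholinergic interneuron identity were measured by a list of 12, all with a row and 7 tested, of which 3 were higher and 4 lower in knock-in, with 0 called and a median of -0.049. Isl1, the LIM factor that acts with Lhx8, had means of 3.06 ± 0.389 (wild type) and 2.81 ± 0.339 FPKM (knock-in; SD, n = 3 each). Its log2 difference was -0.091 (adjusted p = 0.997 in limma). Ecel1, a peptidase-like gene, was the 1 gene of the list that passed an unadjusted p of 0.05 and the 1 without overlap, beside 4.27% and 9.51% of all genes tested. Its wild-type libraries were at 9.87 to 10.8 FPKM and its knock-in libraries at 8.87 to 9.59 FPKM (log2 difference -0.16, adjusted p = 0.997 in limma). Ngfr, the low-affinity neurotrophin receptor, was at 0.419 FPKM in knock-in replicate 3 and 0.875 to 1.81 FPKM elsewhere (log2 difference -0.27, adjusted p = 0.997 in limma). Tacr1, a substance P receptor of these neurons that was also picked after its values were seen, was at 5.49 and 6.20 FPKM in the replicate 3 libraries of wild type and knock-in and at 4.77 to 4.96 FPKM in the others.

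On the receiving side, 1 of the 3 muscarinic receptor genes tested was called, beside 0.0212% of all genes tested. Chrm1, the M1 receptor, was at 6.82, 6.59 and 6.52 FPKM in wild type and at 19.2, 19.6 and 19.2 FPKM in knock-in (log2 difference 1.41, SE 0.052, adjusted p = 0.000154 in limma). The difference of Chat, which makes its ligand, is given above. Of the 5 muscarinic genes 3 were tested, and Chrm3 and Chrm4 had log2 differences of 0.32 and -0.010 without a call (adjusted p = 0.997 in limma for both). Chrm1 and Chrm3, 2 of the 3, passed an unadjusted p of 0.05 in limma, beside 4.27% of all genes tested. Chrm1 was the 1 of the 3 without overlap between genotypes, beside 9.51% of all genes tested. The difference of Chrm3 was 0.14 with the cortical marker level described at the end as a covariate and ranged from 0.25 without knock-in replicate 1 to 0.45 without knock-in replicate 3. Of 11 neuronal nicotinic receptor genes 8 had a row and 3 were tested, all 3 with a higher mean in knock-in and 0 called. Chrnb2, the common beta subunit, had means of 7.22 ± 0.367 (wild type) and 7.28 ± 0.340 FPKM (knock-in; SD, n = 3 each). In the same order, Chrna4, its main partner in the brain, had means of 3.05 ± 0.50 and 3.26 ± 0.335 FPKM, and Chrna7 had means of 2.14 ± 0.184 and 2.31 ± 0.288 FPKM.

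Genes for chaperones of nicotinic receptors and for Ly6 proteins that tune them had 8 of 8 members tested, 7 higher and 1 lower, with 0 called and a median of 0.081. Lypd6 was the 1 of 8 genes without overlap, near the 9.51% of all genes tested, with wild-type libraries at 3.17 to 3.38 FPKM and knock-in libraries at 3.42 to 3.76 FPKM. Lypd6b and Ly6h had log2 differences of 0.22 and -0.20. That of Lypd6b was 0.34 when knock-in replicate 3 was left out, 0.12 and 0.15 when replicate 2 of knock-in or of wild type was, and 0.059 with the cortical covariate. That of Ly6h was -0.34 when knock-in replicate 2 was left out, -0.11 when knock-in replicate 3 was, -0.13 when wild type replicate 1 was, and -0.33 with the cortical covariate. Wild type replicate 3 had 3.49 FPKM of Lypd1 where the remaining libraries had 7.64 to 8.18 FPKM, and its log2 difference of 0.29 turned to -0.036 without that library. With all 6 libraries and no covariate 0 of these 4 genes passed an unadjusted p of 0.05, while Ly6h passed it without knock-in replicate 2 and Lypd6b without knock-in replicate 3, and neither was called there. For those fits the share of all genes tested that passed it was not counted.

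**Figure D5:**
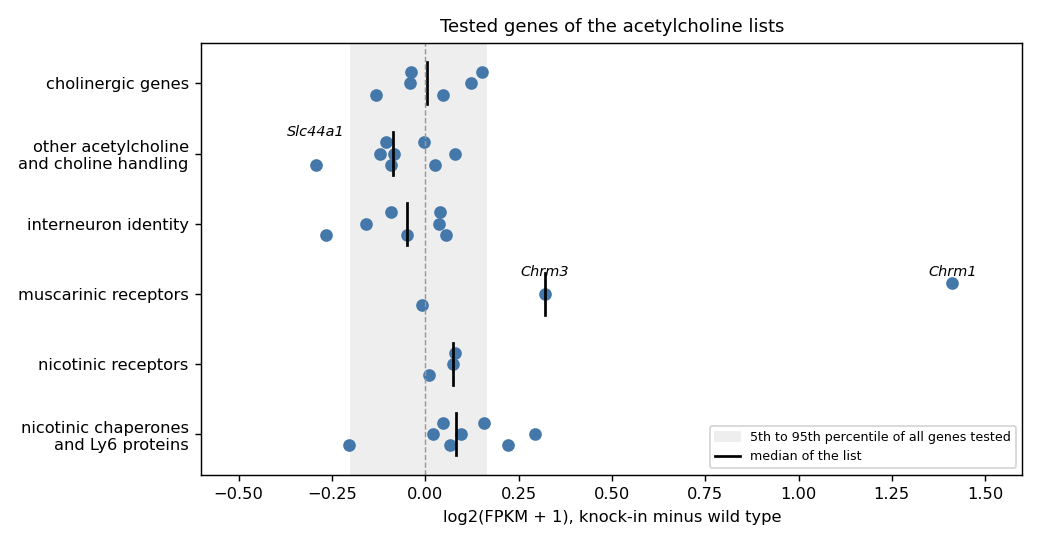
Difference between genotypes on the log2(FPKM + 1) scale (x axis) of the tested genes of each acetylcholine list (y axis), with 1 point per gene and a bar at the list's median, over the band that holds the middle 90% of all genes tested. The 6 cholinergic genes lie inside the band, and Chrm1 at 1.41 is the 1 called gene.

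Levels of marker genes of other cell types also varied between libraries. Cortical excitatory neuron markers, with 7 of 12 tested, all 7 higher in knock-in and 0 called, had sums of 9.29 to 22.1 FPKM over wild-type libraries and 9.29 to 64.2 FPKM over knock-in libraries, with 64.2 and 46.8 FPKM in knock-in replicates 1 and 2 and 9.29 FPKM in knock-in replicate 3. Both replicate 3 libraries, in which Chat was highest, thus had the lowest cortical sums, and wild type replicate 2, at 10.7 FPKM, was low as well while Chat was at its lowest there. With the cortical level as a covariate 0 of 6 cholinergic genes were called and their median difference was 0.12. In that fit Slc5a7 and Slc17a8 passed an unadjusted p of 0.05, with log2 differences of 0.38 and 0.39 (adjusted p = 0.384 and 0.466 in limma). How many of all genes tested passed it in the covariate fit was not counted, so this is no result about the cholinergic genes. Ache moved the other way, to -0.25 (adjusted p = 0.504 in limma), Chat was at 0.18 and Lhx8 at -0.015, and Slc18a3 turned to 0.064. Markers of striatal projection neurons, 12 of 12 tested with 8 higher and 4 lower, had sums of 2813 to 2940 FPKM (wild type) and 2804 to 3107 FPKM (knock-in), the highest in knock-in replicate 3. Markers of pallidum, septum and thalamus, which border the striatum and in part hold cholinergic neurons of their own, summed to 7.15 to 8.42 FPKM and 6.35 to 8.06 FPKM, with the vesicular glutamate transporter gene Slc17a6 at 0.0751 to 0.688 FPKM. Knock-in replicate 3 also stood apart in blood markers, which summed to 761 FPKM there and to 1136 to 1479 FPKM elsewhere, and in oligodendrocyte markers, at 2088 FPKM. Markers of GABAergic interneurons (5 higher and 2 lower of 7 tested), astrocytes (2 and 4 of 6), microglia (3 and 3 of 6) and midbrain dopamine neurons (0 and 2 of 2) also held 0 called genes. Over all genes tested 0.0212% were called, so a count of 0 in lists this short is no result about these cell types. Of the markers of ependyma and choroid plexus, 5 of 5 tested were lower in knock-in with 0 called, a median log2 difference of -0.42, 4 at an unadjusted p under 0.05 (4.27% of all genes tested) and 3 without overlap (9.51% of all genes tested). The 3 were the ciliary genes Rsph1, Ak7 and Foxj1. Rsph1 was at 5.02 to 5.47 FPKM in the wild-type libraries and at 3.26 to 4.08 FPKM in the knock-in ones (log2 difference -0.42, adjusted p = 0.715 in limma). The sum of this list was 393 FPKM in wild type replicate 2, of which Ttr, a choroid plexus gene, made up 374 FPKM, and 14.2 to 36.0 FPKM elsewhere. The part of these differences in the levels of the cholinergic genes was not tested beyond the covariate fit and the fits without single libraries.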

How the data were processed

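RNA was sequenced from dorsal striatum in 6 libraries, 3 per genotype. The authors deposited FPKM values for each gene, per the file headers. The submitters' processing notes list StringTie, HISAT2, SAMtools and FastQC, with no versions. The sources used here give neither the genome build nor the strand setting. At the step size that fitted each library best, low values scaled by length lay within 0.1 of whole steps for 37.1% to 40.4% of values. A step fixed beforehand would give 20% with no steps, which is no baseline for a best-fitting step. Reads were not recovered, and the depth is unknown. The FPKM of a library summed to 314146 to 335508. Genotypes were compared on log2(FPKM + 1), which understates changes of low genes, for genes whose mean reached 1 FPKM, with limma 3.58.1 in R 4.3.3 (trended, robust, two-sided) and Benjamini-Hochberg adjustment over all genes tested. Code was tested on simulated data. Alternatives changed scaling, pseudocount, filter, prior variance, covariate, block and libraries.

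The text names all cholinergic genes, up to 4 genes with the smallest p of each acetylcholine list and the 5 genes most correlated with Chat. A gene that this rule names is not reported here. Other names follow marker lists or were chosen after their values were seen. The members and lists were chosen with earlier results of these data known, and the promoter motifs after the sequences were seen. Positions came from GENCODE M21 on GRCm38 by gene ID. Promoters matched for 6 of 6 genes.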

Additional observations from a re-analysis of the deposited data

How the results depend on the processing

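In all 15 alternatives 0 of the 6 cholinergic genes were called. At a minimum mean of 5 FPKM only Chat and Ache were tested. The median difference of the cholinergic genes ranged from -0.052 to 0.14 when single libraries were left out and was 0.12 with the cortical covariate. The count over all genes was 3 to 14 when single libraries were left out, with 11 and 14 without knock-in replicates 1 and 2, 6 without knock-in replicate 3 and 8 without wild type replicate 2. Deviations of same-numbered libraries correlated at -0.011, -0.074 and 0.19. With 3 libraries per genotype this cannot settle whether replicate numbers pair the libraries. Of the same-numbered pairs only replicate 3 held libraries that correlated best with each other. Wild type replicate 1 correlated best with knock-in replicate 2, at 0.21. With a replicate block 2 genes and 0 cholinergic genes were called. The block lowered the SE to 0.079 for Chat, 0.078 for Slc5a7, 0.080 for Slc18a3 and 0.097 for Slc17a8. It raised the SE to 0.12 for Ache and 0.091 for Lhx8.

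The differences below changed sign, none of them called, and the cause was not tested. With median-of-ratios scaling Chrm4 was at 0.0099. With the cortical covariate Slc18a3 was at 0.064, Isl1 at 0.044, Chrm4 at 0.037 and Chrna4 at -0.054. Over the fits without 1 library or without both replicate 3 libraries, log2 differences ranged from -0.037 to 0.20 for Chat, -0.0010 to 0.25 for Slc5a7, -0.13 to 0.073 for Slc18a3, -0.21 to 0.031 for Ache, -0.10 to 0.038 for Lhx8 and -0.076 to 0.28 for Slc17a8. They ranged from -0.17 to 0.0011 for Chkb, -0.42 to 0.096 for Ngfr, -0.055 to 0.053 for Chrm4, -0.015 to 0.16 for Chrna4, -0.025 to 0.039 for Chrnb2 and -0.038 to 0.48 for Lypd1. The depth is unknown, so the spread between libraries sets the limit.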
